A study of Mus musculus with 6 samples.

Results

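The receptor tyrosine kinases of regulatory T (Treg) cells were examined in 6 RNA-seq libraries. The members were 43 genes chosen by their symbol, and 37 of them had a row among the 22939 genes of the count table. Erbb4, Ros1, Epha4, Ror1, Ror2 and Musk were not analysed here. Every row of that table held at least 1 count in some library. The study isolated naive CD4+ T cells from Foxp3GFP mice, in which green fluorescent protein reports the Treg transcription factor Foxp3, on a C57BL/6J background. The cells were activated through CD3 and CD28 with TGF-β1 and with antibodies against IFN-γ and IL4, and GFP+ cells were sorted. In 3 libraries these cells had no drug (labelled control, here ctrl-Treg), and in 3 they were cultured with sorafenib (labelled sorafenib, here Sora-Treg). The dose and the time of harvest of the sequenced cells are not in the labels, nor are the animals' ages or the number of animals. These are cells induced in culture, so they model induced Treg cells and not those of a tumor or the thymus.

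Receptor tyrosine kinases are membrane proteins that bind a growth factor or a surface ligand outside the cell, pair up, and phosphorylate each other on tyrosine inside it. The phosphorylated tails recruit adaptors such as Grb2 and Shc1, which feed the RAS-ERK and PI3K-AKT pathways, and ubiquitin ligases such as Cbl end the signal. Sorafenib (Sora) binds the kinase domain of several of them, among them the VEGF and PDGF receptors, KIT, FLT3 and RET, besides the RAF kinases. The drug acts on the proteins, while the measurements here are of the messenger RNA.

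Total counts lay between 30727686 and 37717324 per library, and 3 counts corresponded to between 0.0762 and 0.0989 CPM, the count scaled to library size. Each library is 1 sample, and since the labels do not say that the samples come from separate cultures or animals, p-values measure the spread between these samples, which may be technical. The T cell genes Cd3d, Cd3e, Cd3g and Cd4 and the Treg genes Foxp3, Il2ra, Ctla4, Tnfrsf18, Ikzf2 and Ikzf4 were all present. Their summed level was 4422 to 4461 CPM in ctrl-Treg and 7706 to 7818 CPM in Sora-Treg libraries. These genes did not rise evenly. Mean levels rose from 1934 to 3795 CPM for Il2ra and from 383 to 1108 CPM for Ctla4. Foxp3 (1.05-fold, with overlapping groups), Cd4 (1.04-fold) and Ikzf2 (1.01-fold) hardly changed. The rest rose by 1.21-fold (Ikzf4) to 2.40-fold (Cd3g). Differences were tested on the counts with the quasi-likelihood test of edgeR over 13463 genes. A gene was called at an adjusted p under 0.05, and called a differentially expressed gene (DEG) if it also changed by more than 2-fold.

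A minority of these receptors, as of all genes, was expressed in Treg cells. Levels that are compared between genes are given in FPKM, fragments per kilobase of gene, scaled to the library total. A mean of at least 1 FPKM in either group was reached by 12 of the 37 genes, or 32.4%, against 46.3% of all 22939 genes. The 12 were Axl, Kit, Igf1r, Tyro3, Insr, Fgfr3, Ryk, Ephb6, Epha2, Erbb3, Ddr1 and Ntrk3. Each group held 11 of these, since Epha2 was below 1 FPKM in Sora-Treg cells and Ntrk3 in ctrl-Treg cells. A further 7 genes were lower but passed the filter on low counts, that is Csf1r, Fgfr1, Ephb2, Ptk7, Flt3, Egfr and Ltk. The other 18 were below the filter and none of them passed 21 counts in a library. The filter was passed by 51.4% of the 37 genes and by 58.7% of all genes.

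Of the 19 genes tested, 7 rose, 7 fell and 5 were not called. That is 14 calls, where 59.6% of all tested genes were called, 29.7% higher and 29.9% lower. DEGs numbered 8 of the 19, with Kit, Ntrk3 and Ephb2 higher and Epha2, Fgfr3, Csf1r, Flt3 and Ptk7 lower. Of all tested genes 11.3% were DEGs, 6.3% higher and 4.97% lower. In 16 of the 19 genes the groups did not overlap, against 63.7% of all tested genes. The median log2 fold change was 0.15 for the 19 genes and -0.00352 for all tested genes, and the median size of the change, without its sign, was 0.77 and 0.28. Flt3 reached the level of the filter in all 3 ctrl-Treg libraries but in 1 Sora-Treg library, and Ltk in the 3 Sora-Treg libraries only, so the counts above describe the genes that passed and not all members.

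**Figure D1:**
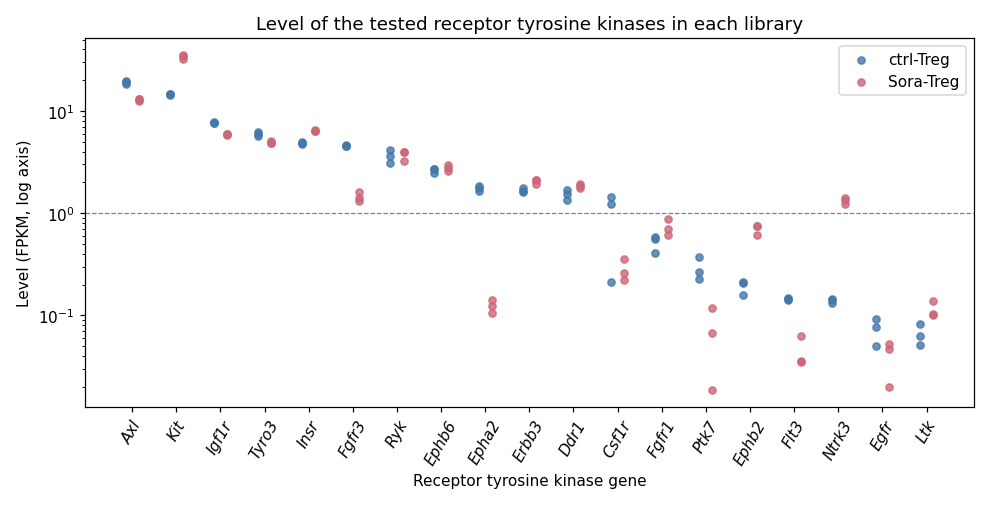
Level of the 19 tested receptor tyrosine kinases in each of the 6 libraries (FPKM, log axis), ordered by the ctrl-Treg mean, with ctrl-Treg libraries in blue, Sora-Treg libraries in red and a dashed line at 1 FPKM. Kit stood above all others in Sora-Treg cells, and Epha2 and Ntrk3 crossed the dashed line in opposite directions.

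The order of the levels differed between the groups. In ctrl-Treg cells Axl was the highest at 19.1 ± 0.720 FPKM and Kit was next at 14.5 ± 0.0592 FPKM (SD, n = 3). In Sora-Treg cells Kit was the highest at 34.1 ± 1.58 FPKM and Axl was next at 13.0 ± 0.311 FPKM (SD, n = 3). The ratio of Kit to Axl was 0.744 to 0.792 in the ctrl-Treg libraries and 2.47 to 2.72 in the Sora-Treg libraries. Igf1r, at 7.66 ± 0.0751 FPKM, was above Insr, at 4.86 ± 0.0777 FPKM, in ctrl-Treg cells, and Insr, at 6.42 ± 0.119 FPKM, was above Igf1r, at 5.92 ± 0.0735 FPKM, in Sora-Treg cells (SD, n = 3). In neither pair did the libraries of a group overlap. The order of Insr and Igf1r rests on the 1 length used per gene, 9423 bases for Insr and 12973 for Igf1r. In CPM, which is not divided by length, Igf1r was above Insr in every library of both groups. Kit and Axl had the same order in CPM as in FPKM. Tyro3 came after Igf1r in ctrl-Treg cells with 5.93 ± 0.241 FPKM, and Ryk and Ephb6 followed at 3.62 ± 0.529 and 2.63 ± 0.143 FPKM (SD, n = 3). Neighbours whose libraries overlapped, and whose order is therefore not resolved, were Epha2, Erbb3 and Ddr1 in ctrl-Treg cells and Fgfr3 and Ntrk3 in Sora-Treg cells. The summed level of the 37 genes was 70.5 ± 1.41 FPKM in ctrl-Treg and 79.8 ± 1.89 FPKM in Sora-Treg cells (SD, n = 3). Kit made up 20.6% ± 0.354 of it in the first and 42.7% ± 1.08 in the latter, and without Kit the sum was 56.0 ± 1.37 and 45.7 ± 0.618 FPKM (SD, n = 3).

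**Figure D2:**
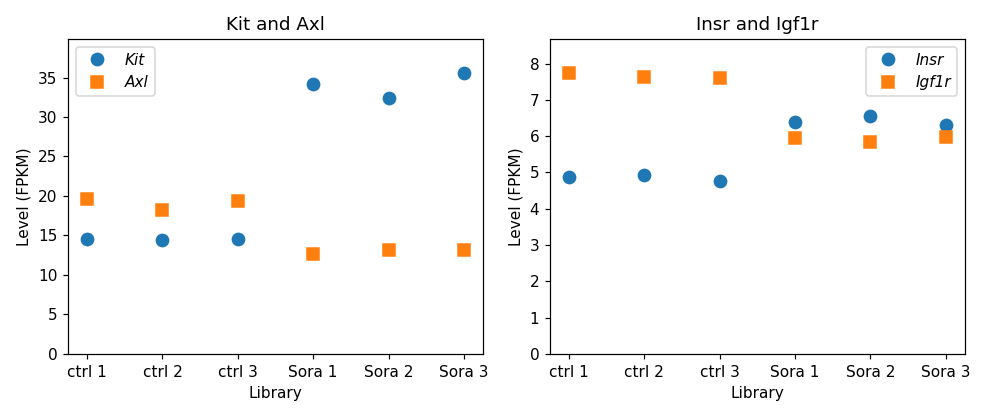
Level (FPKM, axis from 0) of Kit and Axl on the left and of Insr and Igf1r on the right in each of the 3 ctrl-Treg and 3 Sora-Treg libraries, 1 point per gene and library. In both pairs the gene that was lower per length in every ctrl-Treg library was the higher one in every Sora-Treg library. In CPM, which is not divided by length, Igf1r was above Insr in every library.

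The sequences upstream of the start are shown for the DEGs that had a mean above 2 CPM in either group and a promoter entry in RefSeq (assembly GRCm38.p6), which held 36 of the 43 genes. They are Kit and Ephb2, which rose, and Epha2 and Fgfr3, which fell. Csf1r and Ntrk3 have no entry. Each line gives the 250 bases before the first listed start, 5′ to 3′ on the strand of the gene, and capitals mark the GC box, GGGCGG on either strand, a motif that SP1-type factors bind. The Kit window is chr5:75574737-75574986 (plus strand), the Ephb2 window chr4:136836013-136836262 (minus strand), the Epha2 window chr4:141300971-141301220 (plus strand) and the Fgfr3 window chr5:33721474-33721723 (plus strand).
Kit: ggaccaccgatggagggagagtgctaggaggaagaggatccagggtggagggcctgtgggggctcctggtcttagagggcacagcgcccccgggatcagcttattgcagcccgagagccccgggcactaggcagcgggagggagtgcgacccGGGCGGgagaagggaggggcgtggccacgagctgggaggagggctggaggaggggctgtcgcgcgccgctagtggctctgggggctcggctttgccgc
Ephb2: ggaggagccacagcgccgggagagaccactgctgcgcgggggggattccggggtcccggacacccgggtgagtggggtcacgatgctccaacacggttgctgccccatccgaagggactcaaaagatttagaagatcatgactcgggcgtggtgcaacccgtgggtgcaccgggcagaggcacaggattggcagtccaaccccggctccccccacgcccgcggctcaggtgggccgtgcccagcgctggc
Epha2: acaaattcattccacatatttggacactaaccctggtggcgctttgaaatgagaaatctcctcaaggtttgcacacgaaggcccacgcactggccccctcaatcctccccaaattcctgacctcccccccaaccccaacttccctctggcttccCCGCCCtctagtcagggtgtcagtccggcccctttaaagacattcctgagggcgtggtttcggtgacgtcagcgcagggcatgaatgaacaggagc
Fgfr3: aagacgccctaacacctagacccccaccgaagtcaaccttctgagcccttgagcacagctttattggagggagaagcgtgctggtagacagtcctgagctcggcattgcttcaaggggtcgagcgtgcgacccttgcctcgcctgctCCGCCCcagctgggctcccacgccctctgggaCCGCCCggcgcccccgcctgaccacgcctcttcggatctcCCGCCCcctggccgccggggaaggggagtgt
The windows held 17, 20, 9 and 19 CG pairs in that order, against a median of 6 over the 32851 windows of all genes, and 70.8%, 68.4%, 55.6% and 66.8% G or C, against a median of 52.4%. Fgfr3 had 3 GC boxes, Kit and Epha2 had 1 each, and Ephb2 had none, where 32.7% of all windows held one. The TATA box (TATAAA), the forkhead core that FOXO factors bind (GTAAACA), the AP-1 site (TGANTCA), the GATA site (AGATAA) and the SMAD-binding element (CAGAC) were searched on both strands and were not in any of the 4 windows. They were found in 12.4%, 3.17%, 6.75%, 9.99% and 42.2% of all windows.

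Kit, the receptor of stem cell factor on mast cells and blood progenitors and a kinase that Sora inhibits, was the most expressed receptor tyrosine kinase of Sora-Treg cells. Its level was 72.4, 72.2 and 72.5 CPM in the ctrl-Treg against 184, 175 and 192 CPM in the Sora-Treg libraries. The groups were far apart, and the 3 ctrl-Treg libraries differed by less than 1 CPM. The log2 fold change was 1.35 ± 0.04 (SE, adjusted p = 1.25e-18 by edgeR), a 2.54-fold rise. Its ligand Kitl never passed 6 counts. Genes of mast cells, the best known carriers of Kit, were near 0. Of 10 mast cell markers, 5 had a row, and their summed level was 0.157 to 0.356 CPM in ctrl-Treg and 0.0659 to 0.169 CPM in Sora-Treg libraries. Mcpt4, Cma1 and Gata2 had at most 3 counts in any library. In a bulk library fewer cells of a type and less RNA per cell cannot be told apart, which holds for Kit and for every gene that follows.

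The other receptors that Sora is known to inhibit were low. Flt3, the receptor of dendritic and lymphoid progenitors, had 33, 32 and 28 counts in the ctrl-Treg and 7, 13 and 8 counts in the Sora-Treg libraries, or 0.838 to 0.879 against 0.225 to 0.408 CPM. All ctrl-Treg libraries were above all Sora-Treg libraries, and the log2 fold change was -1.58 ± 0.42 (SE, adjusted p = 0.00229 by edgeR). Flt3 passed the filter through the ctrl-Treg libraries, where it was high, and in the fit without a filter its log2 fold change was -1.59 (adjusted p = 0.00192 by edgeR). Of 7 dendritic cell markers, 5 had a row. Xcr1 and Cd209a had at most 3 counts and Itgax at most 8. Zbtb46 fell from 15.4 ± 0.891 to 4.13 ± 0.432 CPM and Irf8, which lymphocytes also express, rose from 243 ± 5.35 to 475 ± 7.17 CPM (SD, n = 3). The summed level of the list was 254 to 265 CPM in ctrl-Treg and 470 to 483 CPM in Sora-Treg libraries. The B cell genes Cd79a, Cd79b and Pax5 fell with Flt3 while Ebf1 rose. The part of these genes' cells in the fall of Flt3 was not tested. The ligand of this receptor, Flt3l, was expressed at 49.1 ± 1.76 CPM and rose to 110 ± 5.86 CPM (mean ± SD, n = 3), with a log2 fold change of 1.17 ± 0.04 (SE, adjusted p = 3.63e-16 by edgeR).

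The VEGF receptors were at or near the floor. Flt1, a high-affinity receptor that also acts as a decoy for VEGF, had 6, 9 and 7 counts in the ctrl-Treg and 3, 3 and 3 counts in the Sora-Treg libraries. Kdr, the main signaling receptor of VEGF, had 2, 2 and 0 counts and 2, 9 and 10 counts. Flt4, the receptor of lymphatic vessels, had at most 2 counts. Summed over the 3 genes, a library held 5 to 14 counts, at the totals given above. All 3 were below the filter. In the fit without a filter Kdr was called higher (2.40 on the log2 scale, adjusted p = 0.0409 by edgeR), but not with DESeq2 (0.0817) or limma on FPKM (0.14), and Flt1 and Flt4 were not called in that fit. Of 6 markers of endothelium, whose cells carry most of these receptors, Cdh5 and Emcn had at most 3 counts per library and Vwf and Plvap at most 5. Pecam1, which leukocytes also express, made up nearly all of their summed level of 10.4 to 13.2 CPM in ctrl-Treg and 38.3 to 40.5 CPM in Sora-Treg libraries and rose by 1.80 on the log2 scale, while Esam, on at most 20 counts, fell by 3.30 (adjusted p = 2.74e-15 and 2.28e-04 by edgeR). By contrast Vegfa, a ligand, was at 278 ± 0.648 CPM in ctrl-Treg and 476 ± 10.4 CPM in Sora-Treg cells (mean ± SD, n = 3). Its log2 fold change was 0.78 ± 0.03 (SE, adjusted p = 6.34e-17 by edgeR). Pdgfra had 7, 2 and 1 counts against 0, 1 and 0, and Pdgfrb 14, 8 and 5 against 6, 6 and 4. Ret, the receptor of the GDNF family, had 5, 6 and 10 counts against 9, 14 and 9.

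Of the 4 FGF receptors, which bind fibroblast growth factors together with heparan sulfate, Fgfr3 was the only one above 1 FPKM. It had 19.7, 20.2 and 20.3 CPM in the ctrl-Treg against 6.16, 6.71 and 7.70 CPM in the Sora-Treg libraries. The groups did not come near each other, and the log2 fold change was -1.54 ± 0.09 (SE, adjusted p = 1.25e-12 by edgeR). Fgfr1 had 1.98, 2.69 and 2.85 CPM in the ctrl-Treg against 3.23, 3.70 and 4.63 CPM in the Sora-Treg libraries. The groups lay side by side without overlap, and the log2 fold change was 0.63 ± 0.20 (SE, adjusted p = 0.00825 by edgeR). This call rested on single libraries, since it was lost without control replicate 1 (0.48, adjusted p = 0.0542) or without sorafenib replicate 3 (0.47, adjusted p = 0.0781). Fgfr2 had at most 1 count. Fgfr4 had 0, 2 and 3 counts in ctrl-Treg and 10, 2 and 0 counts in Sora-Treg libraries, so that 1 library held most of its counts.

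The largest rise among these receptors was that of Ntrk3, which encodes TrkC, the receptor of neurotrophin-3 in the nervous system. It had 3.30, 3.24 and 3.04 CPM in the ctrl-Treg against 35.3, 30.9 and 33.6 CPM in the Sora-Treg libraries. Every Sora-Treg library was far above every ctrl-Treg library. The log2 fold change was 3.38 ± 0.09 (SE, adjusted p = 7.24e-19 by edgeR), a 10.4-fold rise. Per length Ntrk3 was at 0.139 ± 0.00623 FPKM in ctrl-Treg and 1.33 ± 0.0898 FPKM in Sora-Treg cells (SD, n = 3). Those values rest on a length of 23979 bases, against 5043 bases for Tyro3. Without that division Ntrk3 was above Tyro3 in Sora-Treg cells, at 33.3 ± 2.19 against 26.1 ± 0.671 CPM (SD, n = 3). Ntrk3 also makes truncated forms that lack the kinase domain, and a count per gene does not tell them from the full receptor. The noncoding gene Gm39038 overlaps it in RefSeq and had at most 5 counts. Ntrk2 had 1 count in all.

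**Figure D3:**
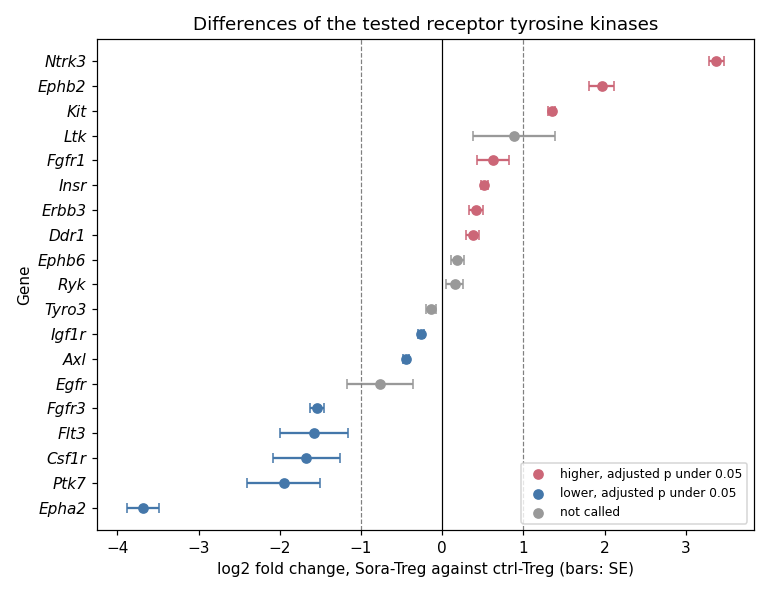
Log2 fold change of Sora-Treg against ctrl-Treg cells for the 19 tested receptor tyrosine kinases (points, edgeR, 3 against 3 libraries) with the SE as bars, colored by call and with dashed lines at a 2-fold change. Ntrk3 and Epha2 lay at the ends, at 3.38 and -3.68, and the bars were widest for the genes of the lowest counts.

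Eph receptors bind ephrins on neighbouring cells and guide adhesion and positioning. Their members went in opposite directions. Epha2, a receptor of A-type ephrins that is best known in epithelium, had 6.58, 7.34 and 7.08 CPM in the ctrl-Treg against 0.461, 0.533 and 0.618 CPM in the Sora-Treg libraries. The fall took it from above 1 FPKM to 0.124 ± 0.0180 FPKM (SD, n = 3) in every library, with a log2 fold change of -3.68 ± 0.20 (SE, adjusted p = 2.18e-13 by edgeR), which was 12.8-fold. Ephb2, a receptor of B-type ephrins, had 2.23, 2.23 and 1.69 CPM in the ctrl-Treg against 8.54, 7.03 and 8.57 CPM in the Sora-Treg libraries. It rose without overlap by 1.96 ± 0.16 on the log2 scale (SE, adjusted p = 2.28e-10 by edgeR). Ephb6, a member of T cells and thymocytes whose kinase domain is inactive, was the highest of the family at 2.63 ± 0.143 FPKM in ctrl-Treg and 2.76 ± 0.183 FPKM in Sora-Treg cells (SD, n = 3). Its log2 fold change was 0.19 ± 0.08 and was not called (SE, adjusted p = 0.0568 by edgeR). Ephb4 was below the filter, with 21, 6 and 11 counts against 2, 3 and 5. Without a filter Ephb4 was called lower by edgeR (adjusted p = 0.0382) but not by DESeq2 (0.078) or limma on FPKM (0.0914).

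The ephrins changed too. Efna5 rose by 2.08 and Efna1 by 1.02 on the log2 scale, and Efnb3 and Efnb1 changed by -1.16 and -0.61 (edgeR adjusted p = 4.69e-07, 0.0445, 2.23e-06 and 0.0151). The call of Efna1 was lost with DESeq2 and without any of 4 libraries (adjusted p from 0.0585 to 0.222 for control replicates 2 and 3 and sorafenib replicates 2 and 3). Efna1 was at 0.404 ± 0.212 CPM in ctrl-Treg and 0.834 ± 0.259 CPM in Sora-Treg cells (mean ± SD, n = 3).

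The insulin receptor pair, which couples to PI3K-AKT through insulin receptor substrates, changed in opposite directions. Insr, the insulin receptor, had 44.1, 44.7 and 43.2 CPM in the ctrl-Treg against 62.5, 64.3 and 62.0 CPM in the Sora-Treg libraries. It rose by 0.52 ± 0.04 on the log2 scale (SE, adjusted p = 5.9e-10 by edgeR). Igf1r, the receptor of insulin-like growth factors, had 96.3, 95.4 and 95.0 CPM in the ctrl-Treg against 80.3, 79.0 and 80.7 CPM in the Sora-Treg libraries. It fell by 0.26 on the log2 scale with an SE of 0.04 (adjusted p = 2.22e-06 by edgeR). Neither gene had overlapping groups, and neither change reached 2-fold. Irs2, the substrate expressed here, rose by 0.73 ± 0.04 on the log2 scale (SE, adjusted p = 9.88e-14 by edgeR), while Irs1 had at most 4 counts. The ligand Igf1 never passed 17 counts. Insrr, the insulin receptor-related receptor that is not among the 43 genes, rose from 3.60 ± 0.451 to 13.6 ± 1.24 CPM (mean ± SD, n = 3), with a log2 fold change of 1.91 ± 0.12 (SE, adjusted p = 2.95e-12 by edgeR).

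The TAM receptors Tyro3, Axl and Mertk bind Gas6, and Tyro3 and Mertk also protein S (Pros1), on dying cells and dampen innate immune responses. Axl had 102, 95.6 and 101 CPM in the ctrl-Treg against 71.1, 74.4 and 74.4 CPM in the Sora-Treg libraries. It fell in every library by 0.44 on the log2 scale with an SE of 0.04 (adjusted p = 1.69e-09 by edgeR), which was 1.36-fold. Tyro3 had 28.5, 30.0 and 27.6 CPM against 26.9, 25.7 and 25.7 CPM, with a log2 fold change of -0.14 ± 0.06 (SE, adjusted p = 0.0536 by edgeR). That call depended on the scaling, with an adjusted p of 0.0166 under upper quartile scaling and 9.37e-04 with libraries scaled by their totals. Mertk had 11, 1 and 0 counts in the ctrl-Treg and 1, 3 and 1 counts in the Sora-Treg libraries. Of the ligands, Pros1 rose by 0.41 ± 0.11 on the log2 scale (SE, adjusted p = 0.00211 by edgeR), and Gas6 was at 0.513 ± 0.254 CPM in ctrl-Treg and 0.187 ± 0.139 CPM in Sora-Treg cells (mean ± SD, n = 3). Gas6 was called lower (adjusted p = 0.0299 by edgeR), and that call was lost with DESeq2 (0.085) and without control replicate 1 or 2 or sorafenib replicate 1 or 3.

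Among the ERBB receptors, which bind the EGF and neuregulin families, only Erbb3 was above 1 FPKM. Erbb3 has a weak kinase and signals by pairing with other members, of which Erbb2 had at most 2 counts. It had 9.32, 9.45 and 10.2 CPM in the ctrl-Treg against 12.1, 13.2 and 13.3 CPM in the Sora-Treg libraries, and rose without overlap by 0.42 ± 0.09 on the log2 scale (SE, adjusted p = 4.03e-04 by edgeR). Egfr had 45, 35 and 20 counts against 8, 20 and 25 counts. These groups overlapped, and the log2 fold change of -0.77 ± 0.40 was not called (SE, adjusted p = 0.108 by edgeR). Ddr1, a receptor of collagens, had 18.8, 17.2 and 15.2 CPM in the ctrl-Treg against 23.2, 22.1 and 21.3 CPM in the Sora-Treg libraries. It rose by 0.38 ± 0.08 on the log2 scale (SE, adjusted p = 3.02e-04 by edgeR). Ddr2, the other collagen receptor, had at most 5 counts.

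Ryk and Ptk7, receptors with an inactive kinase domain that take part in WNT signaling, behaved differently. Ryk had 13.0, 9.73 and 11.4 CPM in the ctrl-Treg against 10.9, 13.6 and 13.4 CPM in the Sora-Treg libraries. The groups overlapped and Ryk was not called (0.15 ± 0.11, SE, adjusted p = 0.233 by edgeR). Ptk7 had 48, 38 and 55 counts in the ctrl-Treg and 18, 3 and 12 counts in the Sora-Treg libraries. It fell by 1.95 on the log2 scale with an SE of 0.45 (adjusted p = 6.82e-04 by edgeR), and with the spread among the Sora-Treg libraries the size of that fall is imprecise. Ltk, a receptor close to ALK, had 10, 7 and 5 counts against 14, 11 and 12 and was not called (0.89 ± 0.51, SE, adjusted p = 0.137 by edgeR).

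Csf1r, the receptor of macrophage colony-stimulating factor, varied together with myeloid genes across the libraries. It had 5.31, 4.62 and 0.783 CPM in the ctrl-Treg against 1.05, 1.44 and 0.899 CPM in the Sora-Treg libraries. Control replicates 1 and 2 were high, while control replicate 3 was below all Sora-Treg libraries. The log2 fold change of -1.67 ± 0.41 passed the test (SE, adjusted p = 0.00125 by edgeR). It did not pass with DESeq2 (adjusted p = 0.067) or with robust fitting (0.145), and without control replicates 1 and 2 it was 0.53 (adjusted p = 0.448). The macrophage genes Lyz2, Adgre1 and Mpeg1 split in the same way, with Adgre1 at 23.9, 22.8 and 3.38 CPM in the ctrl-Treg against 4.35, 7.06 and 4.10 CPM in the Sora-Treg libraries. The summed level of the 11 myeloid markers was 27.4 to 108 CPM in ctrl-Treg and 23.9 to 48.0 CPM in Sora-Treg libraries, and 7 of the 11 were called lower. Axl and Flt3, which myeloid cells can also express, were at 101 and 0.877 CPM in control replicate 3. Removing control replicates 1 and 2 leaves 1 ctrl-Treg library that is assumed to vary as the others do. In that fit Axl had a log2 fold change of -0.47 and Flt3, which was not called there, one of -1.60. Kit, Ntrk3 and Ephb2 remained higher by more than 2-fold, and Epha2, Fgfr3 and Ptk7 lower by more than 2-fold. The part of myeloid cells in the falls of Axl, Flt3 and Csf1r was not tested, and a fit with 1 ctrl-Treg library cannot measure it. The ligand Csf1 fell from 3.41 ± 0.417 to 0.485 ± 0.0945 CPM (mean ± SD, n = 3), with a log2 fold change of -2.81 ± 0.27 (SE, adjusted p = 6.18e-09 by edgeR).

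**Figure D4:**
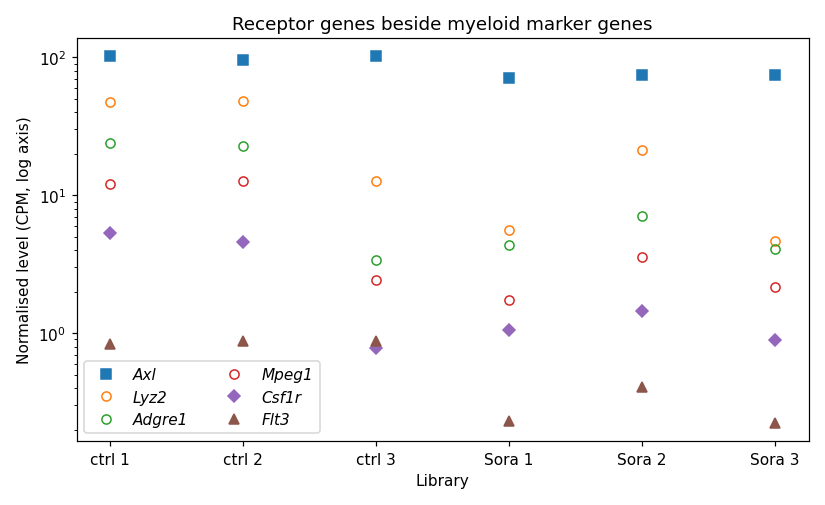
Normalised level (CPM, log axis) of the receptors Axl, Csf1r and Flt3 (filled) and of the myeloid markers Lyz2, Adgre1 and Mpeg1 (open) in each of the 6 libraries. Csf1r and the 3 markers dropped together between control replicates 1 and 2 and control replicate 3, from 5.31 and 4.62 to 0.783 CPM for Csf1r, while Axl and Flt3 stayed level within the ctrl-Treg group.

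The remaining receptors were at or near the floor of 3 counts. Fgfr2, Erbb2, Met, Ntrk2, Flt4 and Tie1, an endothelial receptor, had at most 3 counts in every library. Tek, the receptor of angiopoietins, had at most 4, Mst1r, the receptor of macrophage-stimulating protein, at most 5 and Alk at most 8. Of the 18 genes below the filter, 12 were at 0 in some library. Met, the receptor of hepatocyte growth factor and a target in liver cancer, had 1, 3 and 2 counts in the ctrl-Treg and 0, 1 and 2 counts in the Sora-Treg libraries.

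The ligands, adaptors and negative regulators were read from lists of these genes. Of 54 ligands, 49 had a row and 26 were tested, of which 10 rose and 9 fell, or 73.1% called where 59.6% of all tested genes were. Among all tested genes 11.3% were DEGs, and among the tested ligands 46.2%. The DEGs among them were Flt3l, Efna5, Pgf, Artn and Efna1, which rose (Artn on at most 20 counts, and not called without control replicate 1, adjusted p = 0.0591), and Csf1, Efnb3, Fgf13, Areg, Pdgfa, Mst1 and Gas6, which fell. Pdgfb, a ligand of the PDGF receptors, fell by 0.48 on the log2 scale with an SE of 0.04 (adjusted p = 6.74e-11 by edgeR), and the EGF receptor ligand Hbegf rose by 0.80 ± 0.11 (SE, adjusted p = 1.25e-06 by edgeR). The median log2 fold change of the tested ligands was 0.03. Of 30 adaptors, 25 were tested, 10 rose and 4 fell (56% called), with a median of 0.13. Gab2, a docking protein of KIT and other receptors, rose from 10.4 ± 0.687 to 29.8 ± 1.72 CPM (mean ± SD, n = 3), with a log2 fold change of 1.52 ± 0.08 (SE, adjusted p = 8.35e-14 by edgeR). Grb10, an adaptor that restrains the insulin and IGF1 receptors, fell from 4.61 ± 0.134 to 0.898 ± 0.289 CPM (mean ± SD, n = 3), with a log2 fold change of -2.36 ± 0.22 (SE, adjusted p = 4.49e-09 by edgeR). Shc3 was the other DEG of this list, on at most 30 counts. Grb2 itself was at 178 ± 3.56 CPM in ctrl-Treg and 204 ± 3.19 CPM in Sora-Treg cells (mean ± SD, n = 3). Of 20 negative regulators, 19 were tested, 11 rose and 4 fell (78.9% called), with a median of 0.10. Cblb, a ubiquitin ligase that limits receptor and T cell receptor signaling, rose from 81.8 ± 5.13 to 164 ± 5.98 CPM (mean ± SD, n = 3), with a log2 fold change of 1.0007 ± 0.042 (SE, adjusted p = 2.18e-15 by edgeR). That fold is at the 2-fold limit, so its place among the DEGs is not firm. Errfi1, an inhibitor of the EGF receptor, rose by 0.99 ± 0.07 on the log2 scale (SE, adjusted p = 4.63e-11 by edgeR). Lrig3 was a DEG that fell, on at most 20 counts. With libraries scaled by their totals the median of all genes moved by -0.12, which is as large as the medians of the adaptors and the negative regulators, so these medians do not stand clear of the scaling. Of 15 further receptor tyrosine kinases, 13 had a row and 3 were tested, with Insrr and Lmtk3 higher and Lmtk2 not called.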

How the data were processed

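RNA-seq libraries of 3 control and 3 sorafenib Treg samples were compared, with groups and replicate numbers from the sample titles. The authors deposited a table of raw counts by gene symbol and FPKM values for the same 22939 genes. Sources differ on how these were made. The study's methods name Bowtie2, GRCm38 and an expectation-maximization step, and the submitters' processing notes name fastp, HISAT2, HTSeq and GRCm39. Strand and annotation release are not given in the sources used here, so reads of overlapping or antisense genes cannot be told apart. Each deposited FPKM value was the count divided by the library total and by 1 length for each gene (largest relative difference 1.64e-06), so the FPKM table adds no second measurement. No coordinates were taken for the counts, because the build is unsettled, and the promoter windows carry their own RefSeq build.

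Counts were tested with edgeR 4.0.16 (R 4.3.3, glmQLFTest, TMM scaling, filterByExpr with a minimum count of 10, Benjamini-Hochberg adjustment over all 13463 genes). CPM values are TMM-scaled and FPKM values are not, so a ratio of FPKM values lies lower by about 0.12 on the log2 scale. The SE of a log2 fold change is the one the F statistic implies. With 3 against 3 libraries an exact permutation test reaches 0.1 at the lowest, so tests were taken from the fit across all genes. Alternatives were other scalings, other filters, DESeq2 1.42.0, the replicate number as a block, robust fitting, leaving out libraries, and limma 3.58.1 on log2 FPKM with a pseudocount of 1 or 0.1. Removal of control replicates 1 and 2 together was added once the data had been seen. In a simulation with 100 genes changed 2-fold and 100 changed 4-fold among 13447 tested, edgeR recovered 94% and 100% of them, with 5.37% false calls. Every simulated gene had the same biological coefficient of variation, 4.29%, and far fewer genes changed than were called in the data. Genes such as Csf1r varied more than that within a group, so these rates do not carry over to the data.

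The members and the lists of ligands, adaptors, regulators and markers were chosen with earlier results of these data known. All members are accounted for. Of the ligand, adaptor and regulator lists, the DEGs and up to 5 further called genes by adjusted p were open to naming, and the other genes named from them were chosen after their values were seen. The SD values are spreads between libraries, and the SE values come from the edgeR fit, which includes that spread. The floor of 3 counts is a set level.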

Additional observations from a re-analysis of the deposited data

How the results depend on the processing

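Of the 19 tested receptors, 11 kept direction and call under every alternative that tested them. Csf1r turned to 0.53 without control replicates 1 and 2. That fit holds 1 ctrl-Treg library, so its counts of calls are not given. Limma on FPKM gave 2 lower receptor DEGs with each pseudocount and without a filter, where the pseudocount of 1 shrinks low genes and the FPKM filter of 0.5 removes them by construction. Without that filter 7 negative regulators were higher, and with library size alone 7 adaptors were lower. The cause of the last 2 was not tested. With 1 library left out, 6 to 8 receptors were higher and 7 to 8 lower, with 3 DEGs higher and 5 to 6 lower. Among the 13686 to 13917 genes tested in those fits, 3712 to 3969 were higher and 3653 to 3992 lower. Of these, 836 to 874 were DEGs that were higher and 634 to 751 DEGs that were lower. With library size alone, 33.8% of the calls among all genes were higher, against 49.8% with TMM. Among all genes edgeR gave 848 DEGs higher and 669 lower, the stricter CPM filter 446 lower, and limma on log2(FPKM + 1) 275 and 189, with 32.9% of its calls higher. Ephb6 and Ltk were each called under 1 or 2 alternatives, and Ddr1 and Erbb3 were lost only on FPKM or, for Erbb3, without control replicates 1 and 2 (adjusted p = 0.0563). The number of receptors called expressed was 15 at 0.5 FPKM, 9 at 2 FPKM and 16 at 1 CPM. The labels do not say whether samples with the same replicate number are paired. Deviations from the group mean correlated at -0.0438, 0.0591 and 0.0299 for equal numbers and at -0.100 to 0.0693 for unequal ones. With 3 samples per group these values cannot show or exclude pairing. The fit with the replicate block had 7 receptors higher and 7 lower, as without it, where 4057 and 4064 of all 13463 tested genes were. Without a filter on low counts edgeR called Kdr higher and Ephb4 lower, which gave 8 receptors higher and 8 lower. In that fit 3928 of all 22939 genes were higher and 4295 lower. Neither Kdr nor Ephb4 was called by DESeq2. Low counts limit the 18 receptors below the filter.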
